A study of Mus musculus with 4 samples.

Results

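The Kcn genes, which encode the pore-forming and accessory subunits of potassium channels, were examined in FACS-enriched Hmx3-derived interneurons of *Dnmt1* WT and *Dnmt1* KO mouse embryos. Members were the protein-coding genes whose GENCODE M21 symbol starts with Kcn, with *Kcnj8* left out, which gave 93 of the 55573 genes in the count tables. Of these, 68 had enough counts to be tested. The other 25 were not tested, and their highest count in any library was 16. Of these 25, 5 had no count in any library (*Kcna10*, *Kcne1*, *Kcne3*, *Kcnj1* and *Kcnk16*).

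Both genotypes carried Hmx3-Cre, which is active in Hmx3-expressing cells, and the tdTomato reporter that Cre switches on. The labels give the floxed line as B6;129S-Dnmt1tm4Jae/J. In the KO, Cre deletes exons 4 and 5 of *Dnmt1*, which encodes the maintenance DNA methyltransferase. Cells were taken at embryonic day (E) 16, counted with the day of insemination as day 1, and sorted by tdTomato. The labels name the tissue as basal telencephalon and the study calls the cells preoptic area (POA) interneurons, pooled from 12 WT and 6 KO embryos. There were 2 RNA-seq libraries per genotype. GEO's design text calls them biological replicates, whereas the study's methods call them technical duplicates of pools, so p-values measure only the spread between libraries, which may be technical. The study's methods name *Dnmt1* wild-type mice as the controls and a C57BL/6J background, but the sample titles read Dnmt1loxp_WT, and the labels do not say whether the WT animals carried loxP alleles.

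Potassium channels let potassium leave the cell and so hold the membrane at rest, end action potentials and set how often a neuron fires. Voltage-gated channels (Kcna to Kcnd, Kcnh, Kcnq) open on depolarisation, and the silent subunits (Kcnf, Kcng, Kcns, Kcnv) join them without forming a channel of their own. Inward rectifiers (Kcnj) and tandem-pore leak channels (Kcnk) carry resting currents, in neurons and in glia. The Kcnma, Kcnn, Kcnt and Kcnu channels respond to intracellular ions or pH, and the Kcnab, Kcne, Kcnip and Kcnmb proteins are auxiliary subunits. In astrocytes, *Kcnj10* (Kir4.1) takes up potassium released by active neurons.

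The WT libraries held 3103 and 4557 counts of *Dnmt1* itself, and the KO libraries 2383 and 2552. In CPM (counts divided by library totals adjusted with TMM factors) this was 416 ± 43.4 in WT and 282 ± 1.59 in KO (mean ± SD, n = 2). The groups did not overlap, and the difference on the log2 scale was -0.56 ± 0.14 (log2 fold change ± standard error, adjusted p = 0.0511). These counts cover all exons of the gene, not the deleted ones alone. Library totals ranged from 8075102 to 9995968 counts, so that 3 counts correspond to 0.294 to 0.372 CPM. The WT libraries differed more from each other than the KO libraries did (chi-square per degree of freedom 63.4 against 4.54), and mitochondrial rRNA took 8.66% of counts in WT replicate 1 and 1.51 to 2.32% in the others. Values without WT replicate 1 are therefore given beside several counts of calls.

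Markers of other cell types also differed between the genotypes, where 7.33% of all genes tested were called higher and 0.57% lower (14.9% and 7.09% without WT replicate 1). The summed level of 12 astrocyte markers was 281 and 269 CPM in the WT libraries and 4052 and 3849 CPM in the KO libraries, with all 12 higher, while *Gfap* was without a count in WT. The sum of 10 oligodendrocyte markers was 150 and 166 CPM in WT and 654 and 622 CPM in KO (8 of 10 higher), and that of 8 mural markers was 50.1 and 53.0 CPM against 375 and 387 CPM (6 of 8 higher). Of 10 general neuron markers 3 were lower (6 without WT replicate 1), with sums of 5954 and 5341 CPM in WT and 3990 and 3889 CPM in KO. The 9 GABAergic markers, *Hmx3* among them, summed to 1774 and 1630 CPM in WT and 1663 and 1810 CPM in KO, with none of them at 0 in any library, and 1 of them was higher. In the other lists 1 of 5 oligodendrocyte precursor markers was higher (3 without WT replicate 1), as were 2 of 7 tested microglial markers, and 1 of 2 tested choroid plexus markers (*Ttr*) was lower. Of 6 tested endothelial markers 0 were called, but without WT replicate 1 there were 2 higher and 1 lower. The part of these differences in the Kcn results was not tested. In sorted bulk samples fewer cells of a type and less RNA per cell cannot be told apart.

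The sequences just upstream of the 4 genes with the largest fold changes are shown first, because CG dinucleotides are the sites that DNMT1 methylates. Each line gives the 250 bases before the RefSeq transcript start (GRCm38.p6), 5′ to 3′ on the gene's strand, with CG in capitals. *Kcng4* (a silent subunit) lies at chr8:119635681-119635930 (minus strand), *Kcnk13* (a leak channel) at chr12:99964249-99964498 (plus strand), *Kcnk1* (a leak channel) at chr8:125994852-125995101 (plus strand) and *Kcnj10* at chr1:172340960-172341209 (plus strand).
Kcng4: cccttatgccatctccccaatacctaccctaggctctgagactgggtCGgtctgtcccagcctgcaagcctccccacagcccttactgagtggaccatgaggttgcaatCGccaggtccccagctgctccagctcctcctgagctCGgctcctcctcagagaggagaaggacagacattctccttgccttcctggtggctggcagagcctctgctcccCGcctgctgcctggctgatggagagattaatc
Kcnk13: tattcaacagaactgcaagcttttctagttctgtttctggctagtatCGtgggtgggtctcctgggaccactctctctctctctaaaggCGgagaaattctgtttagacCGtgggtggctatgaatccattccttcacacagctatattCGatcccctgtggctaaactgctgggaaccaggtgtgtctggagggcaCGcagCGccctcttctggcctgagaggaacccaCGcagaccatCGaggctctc
Kcnk1: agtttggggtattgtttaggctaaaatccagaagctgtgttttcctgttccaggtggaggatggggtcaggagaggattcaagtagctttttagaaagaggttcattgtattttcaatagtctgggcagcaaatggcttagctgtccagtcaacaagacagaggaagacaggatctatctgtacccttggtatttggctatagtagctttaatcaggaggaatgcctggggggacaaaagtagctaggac
Kcnj10: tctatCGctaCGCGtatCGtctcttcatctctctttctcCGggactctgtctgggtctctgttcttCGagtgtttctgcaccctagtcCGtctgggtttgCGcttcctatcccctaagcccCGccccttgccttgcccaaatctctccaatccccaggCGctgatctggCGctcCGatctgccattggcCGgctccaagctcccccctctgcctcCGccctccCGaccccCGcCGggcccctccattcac
These genes had little in common in CG content: the stretches held 4, 8, 0 and 17 CG for *Kcng4*, *Kcnk13*, *Kcnk1* and *Kcnj10*. In windows that also include the first 50 bases of the transcript they held 4, 9, 10 and 21. Over all 32851 RefSeq windows of that length the median was 7 CG (quartiles 3 and 20) and 94.6% held at least 1, counted on 1 strand since CG reads the same on both. The 93 windows of the 68 Kcn genes found in that table had a median of 9 CG. DNA methylation itself was not analysed here.

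Of the 68 tested Kcn genes, 10 were higher in *Dnmt1* KO and 0 were lower (edgeR quasi-likelihood test, adjusted p under 0.05). The 10 came from 5 of the 6 classes: the voltage-gated *Kcna2* and *Kcnc4*, the silent subunit *Kcng4*, the inward rectifiers *Kcnj10* and *Kcnj16*, the leak channels *Kcnk1* and *Kcnk13*, the calcium-activated *Kcnn2* and *Kcnn3*, and the sodium-activated *Kcnt1*. No auxiliary subunit was called. The 10 are 14.7% of the tested members, where 7.33% of all 16832 genes tested were higher. For lower calls the background was 0.57%, and for calls in either direction 7.9%. At an unadjusted p under 0.05, 19 Kcn genes passed (27.9%, background 22.7%), 5 of them lower (7.35%, background 8.01%), so both shares were near that of all genes. DESeq2 also called 0 Kcn genes lower, where it called 247 of all 16832 genes lower.

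Apart from the called genes, most of the family stayed close to 0. The log2 fold change was above 0 for 28 and below 0 for 40 of the 68 (58.8%, beside 52.4% of all genes), but above 0 for 35 with scaling by library size only and for 39 without WT replicate 1. The median was -0.10, beside -0.03 over all genes tested, and the Kcn median was the same with *Kcng4* set at its bound. Both KO libraries exceeded both WT libraries in 19 members (27.9%, background 28.3%) and lay below them in 18 (26.5%, background 25.2%), both close to the share over all genes. All 10 called genes were among the 19. Without WT replicate 1, 15 Kcn genes were higher (22.1%, background 14.9%) and 4 lower (5.88%, background 7.09%), namely *Kcnf1*, *Kcnj11*, *Kcnn1* and *Kcnv1*. Without WT replicate 2, 7 other Kcn genes were lower (10.3%, background 12.7%): *Kcnb2*, *Kcnh7*, *Kcnj3*, *Kcnk2*, *Kcnma1*, *Kcns2* and *Kcnt2*. Without KO replicate 1, 6 were higher (8.82%, background 4.19%), with *Kcnc4*, *Kcnk13*, *Kcnn3* and *Kcnt1* no longer called.

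**Figure D1:**
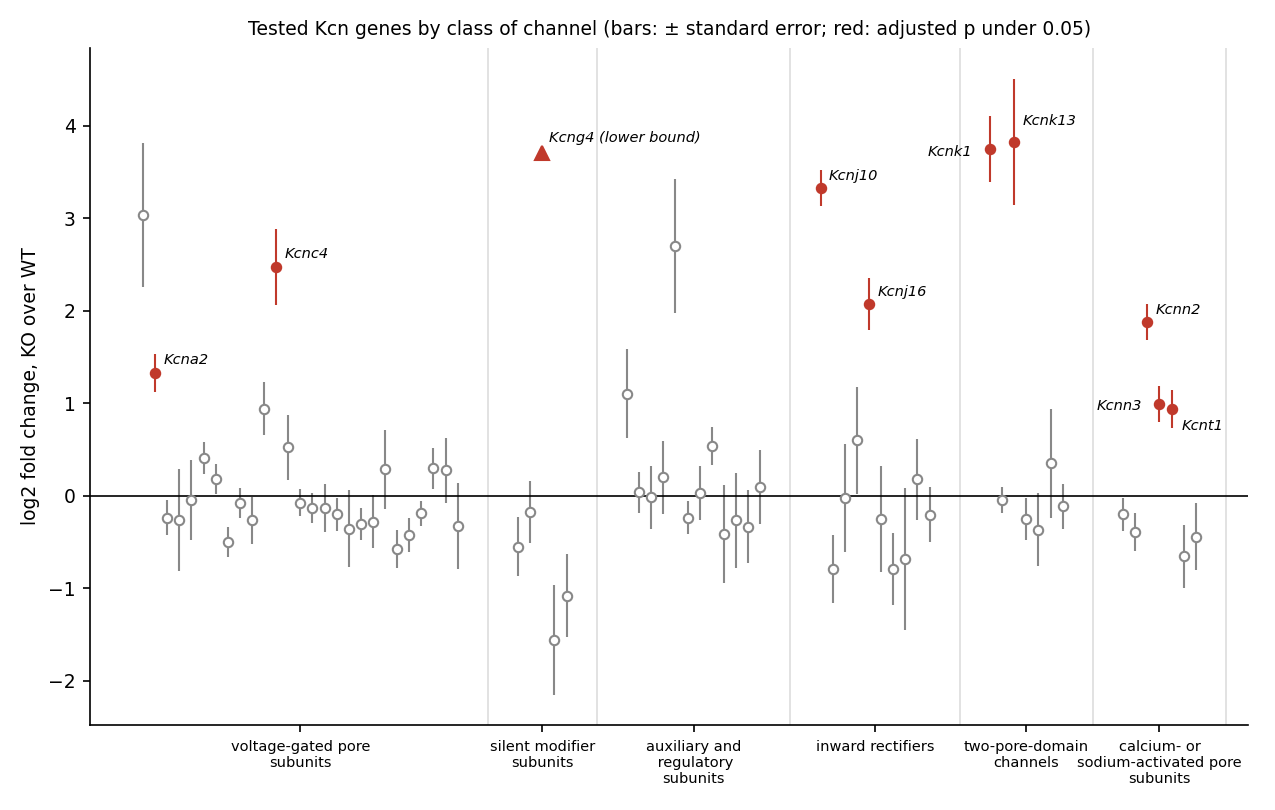
Log2 fold change (KO over WT) of each of the 68 tested Kcn genes with its standard error, in alphabetical order within each class of channel; red points are the 10 called genes, and the triangle is the lower bound for *Kcng4*, drawn without an error. The called genes lie above 0, most uncalled genes form a band around it, and the high open points are *Kcna1* and *Kcne4* with wide error bars.

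Among the inward rectifiers, *Kcnj10* showed the smallest p of all Kcn genes. Its counts were 49 and 80 in the WT libraries, against 599 and 630 in the KO libraries. The groups were far apart, at 6.96 ± 1.24 CPM in WT and 70.3 ± 1.29 CPM in KO (mean ± SD, n = 2). This is a 10.0-fold difference (log2 fold change 3.32 ± 0.20, adjusted p = 2.77e-05). *Kcnj16* encodes Kir5.1, which forms channels together with Kir4.1. Its libraries showed 42 and 52 WT counts against 213 and 165 for KO, and the groups did not overlap, as in every called gene. Its level was 5.15 ± 0.08 CPM in WT and 21.7 ± 5.06 CPM in KO, a 4.21-fold difference (adjusted p = 0.0026).

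The other 8 tested inward rectifiers did not pass the test, and 6 of the 10 had log2 fold changes below 0. *Kcnj3* and *Kcnj11* had the most negative values of the class. *Kcnj3* encodes a subunit of the G-protein-gated channel, and it had 79 and 66 WT counts against 50 and 31 for KO (log2 fold change -0.79 ± 0.39, adjusted p = 0.27). An antisense gene overlaps 31.1% of its exonic length. *Kcnj11* encodes the pore of the ATP-sensitive potassium channel of neurons and beta cells, and it had 61 and 119 WT counts against 36 and 62 for KO (log2 fold change -0.79 ± 0.36, adjusted p = 0.24). In *Kcnj11* the higher KO library lay just above the lower WT library in counts and below it once scaled. *Kcnj13* was at 8 and 23 WT counts against 18 and 26 for KO, but 49.1% of its exonic length overlaps *Gigyf2* on the other strand.

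Per kb of exonic length, the leak channels held the largest gain in level of any Kcn gene. *Kcnk1* (TWIK1) had 17 and 60 WT counts against 475 and 493 for KO. The WT libraries were apart from each other, at 2.11 and 5.88 CPM, yet both stayed far below the KO libraries, with 3.99 ± 2.67 CPM against 55.4 ± 1.54 CPM (13.4-fold, log2 fold change 3.75 ± 0.36, adjusted p = 0.0004). The difference was 9.37-fold without WT replicate 1 and 26.1-fold without WT replicate 2. An antisense gene covers 8.0% of its exonic length, the largest such overlap among the 10 called genes. *Kcnk13* (THIK1) is known as a potassium channel of microglia. It had 1 and 3 WT counts against 28 and 29 for KO, so that WT was at the edge of detection. The ratio of its scaled counts was 14.9 with a 95% interval of 5.5 to 56.5 that covers counting error only (adjusted p = 0.0112). Its fitted log2 fold change, 3.83 with all 4 libraries, was 3.41 without WT replicate 1 and 4.56 without WT replicate 2. Without KO replicate 1 its adjusted p was 0.0877, and the alternatives with all 4 libraries gave 5.09e-05 to 0.0257.

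*Kcnk10* (TREK2) was the most abundant leak channel in WT and differed little: 656 and 785 WT counts against 645 and 692 for KO, with a log2 fold change of -0.05 ± 0.14. *Kcnk2* (TREK1), *Kcnk3* (TASK1), *Kcnk7* and *Kcnk9* (TASK3) also did not pass. The other 7 leak channels were too low to test.

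Of the calcium- and sodium-activated channels, 3 of 7 tested were higher (42.9%, beside 7.33% of all genes). Without WT replicate 1 3 were higher (beside 14.9%) and 1 was lower (beside 7.09%). *Kcnn2* and *Kcnn3* encode small-conductance channels that follow action potentials with a hyperpolarisation. *Kcnn2* had 130 and 125 WT counts against 431 and 480 for KO, which gave 14.2 ± 2.75 CPM and 52.0 ± 1.15 CPM (3.68-fold, adjusted p = 0.0006). *Kcnn3* rose less: its 285 and 261 WT counts against 475 and 586 for KO gave 30.5 ± 6.93 CPM and 60.5 ± 5.70 CPM (1.99-fold, adjusted p = 0.0177). *Kcnt1* encodes the sodium-activated channel Slack. It had 199 and 198 WT counts against 314 and 427 for KO, or 22.1 ± 3.75 CPM and 42.2 ± 6.86 CPM (1.92-fold, adjusted p = 0.0281). The groups did not overlap for any of these genes, as in every called gene, which restates the calls. The calls of *Kcnn3* and *Kcnt1* were lost without either KO library, with adjusted p of 0.0563 and 0.0613 without KO replicate 1, and 0.0992 and 0.282 without KO replicate 2. With all 4 libraries the alternatives gave at most 0.0162 and 0.0297.

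Close relatives of these genes did not pass the test. *Kcnn1* had 213 and 356 WT counts against 201 and 208 for KO (log2 fold change -0.39 ± 0.20, adjusted p = 0.29), *Kcnt2* had 88 and 72 WT counts against 53 and 46 for KO (-0.65 ± 0.34, or -0.32 with the length and GC correction, adjusted p = 0.30), and the big-conductance channel *Kcnma1* was at -0.20 ± 0.18. *Kcnu1*, the related channel known from sperm, was at -0.44 ± 0.36.

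The voltage-gated channels were the largest class, with 27 of 30 members tested and 2 called higher. That is 7.41% of the class, close to the 7.33% of all genes, and without WT replicate 1 it was 5 (18.5%, beside 14.9%). *Kcna2* encodes Kv1.2, a delayed rectifier of axons. It had 335 and 283 WT counts against 752 and 764 for KO, or 34.7 ± 9.80 CPM and 86.8 ± 3.72 CPM (2.51-fold, adjusted p = 0.0053). *Kcnc4* encodes Kv3.4, a fast-inactivating channel. It was low in WT, with 10 and 18 counts against 84 and 64 for KO, or 1.5 ± 0.37 CPM and 8.52 ± 2.08 CPM (5.56-fold, adjusted p = 0.0077). Without KO replicate 1 its adjusted p was 0.0967, and with all 4 libraries the alternatives gave at most 0.0174. Both genes were separated between the genotypes, as was every called gene.

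Near the threshold, *Kcna1*, which encodes Kv1.1 and pairs with Kv1.2, had 15 and 1 WT counts against 59 and 75 for KO. The WT libraries were far apart, and its log2 fold change was 3.04 ± 0.78 and its adjusted p 0.0544. It was called with DESeq2 and limma-voom, and with any 1 library left out except KO replicate 1, and its log2 fold change was 6.1 without WT replicate 1 and 2.03 without WT replicate 2. Of the 8 tested Kcnh genes, 7 had log2 fold changes below 0 in the main fit, where 52.4% of all genes lay below 0, and none was called. The other scalings of the same libraries also gave 7, but the share of all genes was not counted for them. *Kcnh7* had 357 and 329 WT counts against 224 in each KO library (-0.57 ± 0.20, adjusted p = 0.14). Its value was -0.25 with the length and GC correction, -0.34 without WT replicate 1 and -0.79 without WT replicate 2. *Kcnb2*, a Kv2 channel, had 497 and 564 WT counts against 324 and 400 for KO (-0.50 ± 0.16, adjusted p = 0.11).

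Of the silent subunits, 5 of 10 were tested. *Kcng4* (Kv6.4) had no count in either WT library, against 32 and 45 for KO, which is at least 13.1-fold higher when each WT library is set at 3 counts (adjusted p = 0.0034). It was thus the only called Kcn gene without a count in WT. The remaining 4 all had values below 0. *Kcns2* (Kv9.2) had 23 and 20 WT counts against 8 and 6 for KO (log2 fold change -1.56 ± 0.59, adjusted p = 0.17), and *Kcnv1* (Kv8.1) had 39 and 75 against 32 and 18 (-1.08 ± 0.45, adjusted p = 0.20). Their groups did not overlap, where 25.2% of all genes had both KO libraries below both WT libraries, and neither passed the test. *Kcnf1* and *Kcng1* were at -0.55 ± 0.32 and -0.17 ± 0.34, and with 1 library left out *Kcnf1* ran from -0.89 (without WT replicate 1) to -0.10 (without WT replicate 2).

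In this fit no auxiliary subunit was called among 12 tested, and 2 were higher without WT replicate 1 (16.7%, beside 14.9% of all genes). *Kcne4*, a single-pass subunit that inhibits several voltage-gated channels, came closest with 4 and 2 WT counts against 23 and 16 for KO (log2 fold change 2.70 ± 0.72, adjusted p = 0.0640). It was called, for example, with scaling by library size only or by upper quartile. Its log2 fold change was 3.42 without WT replicate 1 and 2.14 without WT replicate 2. *Kcnip3*, a calcium-binding partner of Kv4 channels, was the most abundant auxiliary gene per length and had 230 and 417 WT counts against 398 and 487 for KO (0.54 ± 0.20, adjusted p = 0.17). Its lower KO library fell below the higher WT library in counts, but not in CPM. It was called higher with the length and GC correction (adjusted p = 0.0485) and without WT replicate 2 (7.69e-05), and over the alternatives with all 4 libraries its adjusted p ran from 0.0323 to 0.222. Of the other members, *Kcnab2*, *Kcne1l*, *Kcnmb4* and *Kcnrg* were the most abundant of their groups, with log2 fold changes of 0.03 ± 0.22, 0.20 ± 0.39, -0.34 ± 0.39 and 0.09 ± 0.40.

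**Figure D2:**
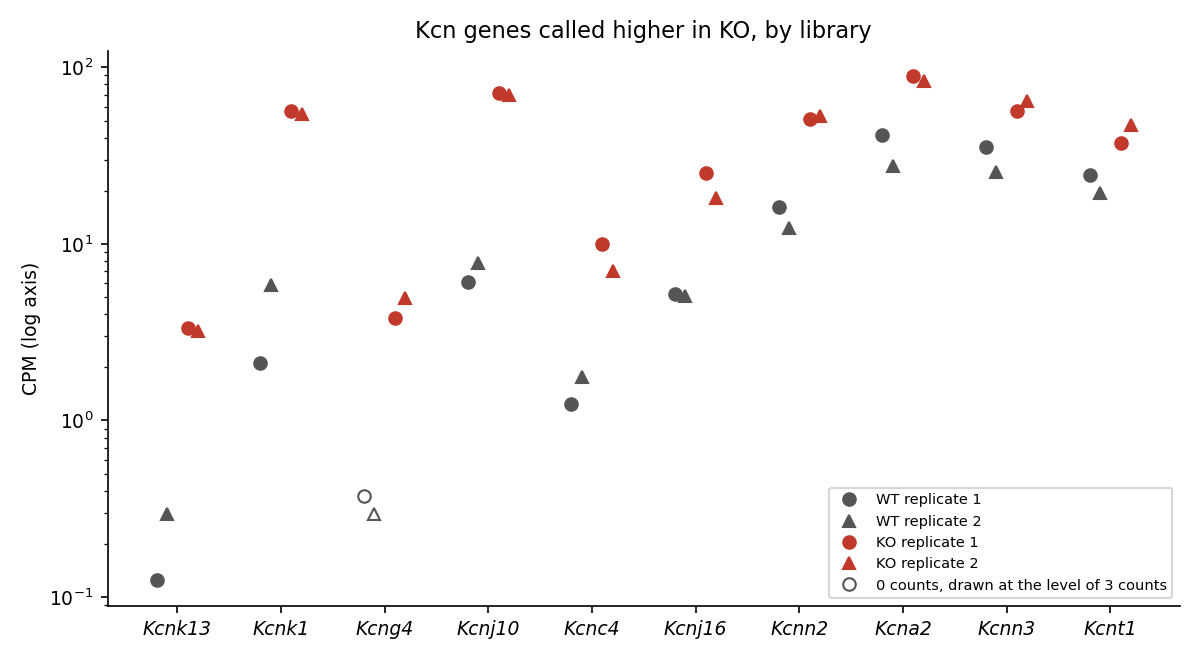
CPM (log axis) of the 10 called Kcn genes in each library, WT in grey and KO in red, circles for replicate 1 and triangles for replicate 2; open symbols stand for 0 counts and are drawn at the level of 3 counts. In every gene both KO points lie above both WT points, and *Kcnk1* shows the wide gap between its WT libraries.

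Levels of different genes were compared in CPM per kb of exonic length. Among the highest Kcn genes in WT were the Kv4 gene *Kcnd2* (mean 18.4), *Kcna3* (17.3), *Kcnd3* (11.3), the Kcnh gene *Kcnh4* (10.2) and *Kcnip3* (9.79). *Kcnh2* (9.14), *Kcnk10* (9.02) and *Kcnc1* (8.95) were nearly level. None of these was called between the genotypes.

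The order changed at the top in KO. *Kcnk1* moved from rank 36 in WT (1.79 CPM per kb) to rank 1 in KO (24.8). *Kcnj10* moved from rank 46 (1.29 CPM per kb) to rank 6 (13.0). *Kcnj16* moved from rank 43 to 17 and *Kcnn2* from 33 to 14. The 10 called genes together held 6.38% and 6.10% of the summed Kcn level per kb in the WT libraries and 26.6% and 24.6% in the KO libraries. These shares use the values that called the genes and are given without a test.

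**Figure D3:**
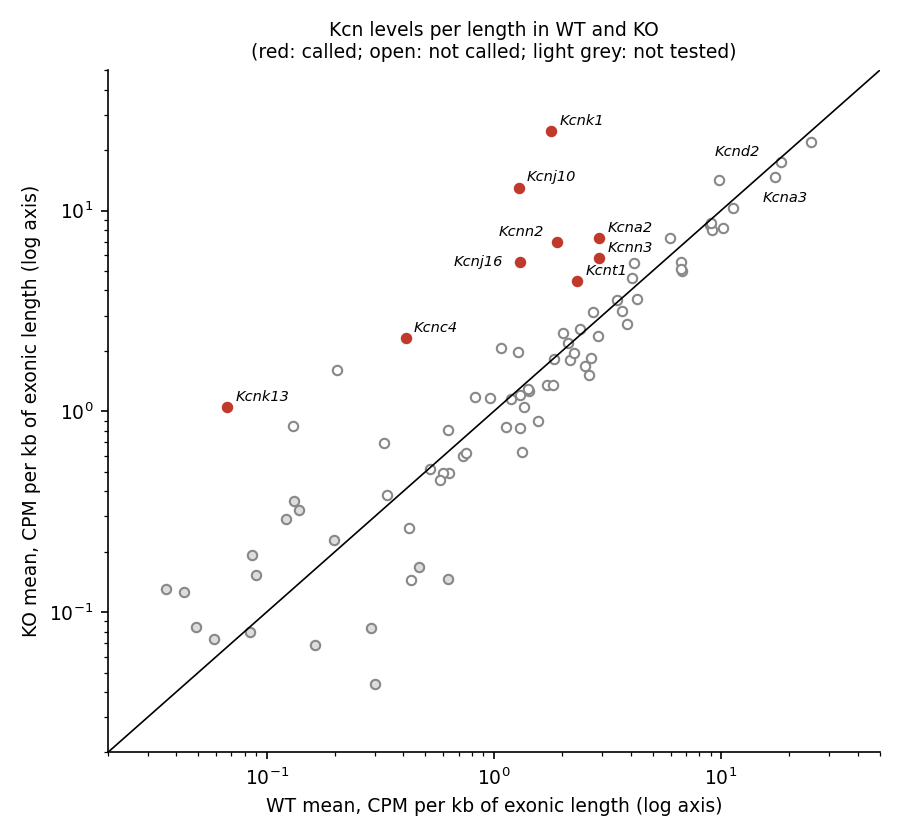
Mean level of each Kcn gene in WT (x) and KO (y) in CPM per kb of exonic length, both on log axes, with the line of equal levels; genes with a mean of 0 in either genotype, *Kcng4* among them, are not drawn. Most genes follow the line, *Kcnk1* and *Kcnj10* lie far above it at high KO levels, and *Kcnd2* and *Kcna3* stay near it.

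Summed by class, the voltage-gated channels had similar levels in all libraries: 148.7 and 143.0 CPM per kb in WT and 137.2 and 147.3 in KO. Their share of the Kcn total was 61.6% and 60.6% in WT and 49.7% and 50.9% in KO. The leak channels had 23.0 and 20.9 CPM per kb in WT and 43.8 and 44.7 in KO, and the inward rectifiers 11.4 and 13.5 in WT and 27.6 and 26.5 in KO. The KO sums of both classes thus lay above both WT sums, while those of the voltage-gated class overlapped. These gains came from the called genes: without *Kcnk1* the leak channels summed to 22.0 and 18.3 CPM per kb in WT and 18.5 and 20.4 in KO, and without *Kcnj10* and *Kcnj16* the inward rectifiers to 8.93 and 10.8 in WT and 8.01 and 9.07 in KO. The silent subunits had 5.82 and 7.66 in WT and 5.25 and 5.65 in KO, the only class with both KO sums below both WT sums. Calcium- and sodium-activated channels had 21.1 and 20.2 CPM per kb in WT and 27.2 and 28.3 in KO, and auxiliary subunits 31.6 and 30.9 against 34.8 and 37.0. The 83 members without a call, the 25 untested ones included, summed to 226.1 and 221.7 CPM per kb in WT and 202.6 and 218.1 in KO.

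**Figure D4:**
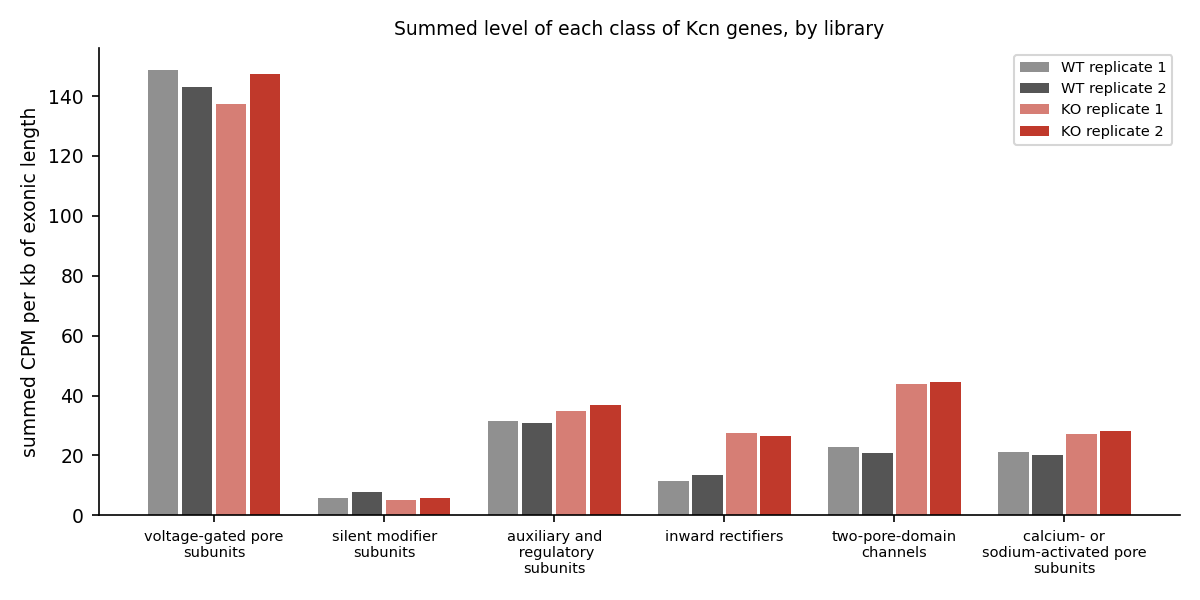
Summed CPM per kb of exonic length of each class of Kcn genes in each library (bars from 0, WT in grey, KO in red). The leak channels (two-pore-domain) and inward rectifiers have taller KO than WT bars, and the voltage-gated bars overlap between the genotypes.

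Some called Kcn genes lie beside another Kcn gene with no protein-coding gene between (GRCm38 coordinates of GENCODE M21). *Kcnj10* (chr1:172341210-172374085, plus strand) lies 11.9 kb from *Kcnj9* (chr1:172320501-172329318, minus strand). *Kcnj9*, a G-protein-gated channel, had 63 and 117 WT counts against 69 and 78 for KO (log2 fold change -0.21 ± 0.30), whereas *Kcnj10* was 10.0-fold higher. The value of *Kcnj9* was -0.45 without WT replicate 1 and 0.10 without WT replicate 2. *Kcnj16* and *Kcnj2* lie 38.2 kb apart on chromosome 11, and *Kcnj2* (Kir2.1) had 39 and 17 WT counts against 21 and 26 for KO (-0.26 ± 0.57). *Kcnj2* was at 0.68 without WT replicate 1 and at -0.85 without WT replicate 2. *Kcna2* lies 63.1 kb from *Kcna3*, with 262 and 341 WT counts against 205 and 285 for KO (-0.24 ± 0.19), and 68.0 kb from *Kcna10*, which had no count.

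Counts of a called gene can also be set against those of its neighbour within a library. Since the pairs were taken for their called member, a higher ratio in KO restates that call and is given as a description. *Kcnj10* had 0.778 and 0.684 counts for each *Kcnj9* count in WT and 8.68 and 8.08 in KO. For *Kcnj16* over *Kcnj2* the ratio was 1.08 and 3.06 in WT and 10.1 and 6.35 in KO, and for *Kcna2* over *Kcna3* 1.28 and 0.83 against 3.67 and 2.68. These ratios do not depend on the scaling between libraries. The difference between neighbours was not tested.

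**Figure D5:**
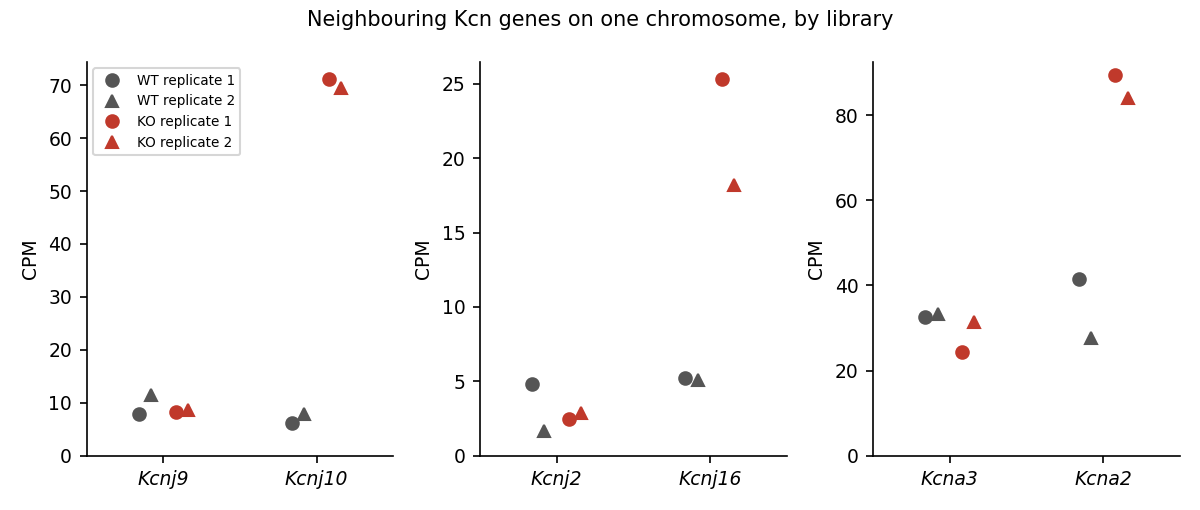
CPM of 3 pairs of neighbouring Kcn genes in each library, WT in grey and KO in red, circles for replicate 1 and triangles for replicate 2; each panel has its own axis from 0. *Kcnj10*, *Kcnj16* and *Kcna2* were called higher in KO, and *Kcnj9*, *Kcnj2* and *Kcna3* were not called.

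Genes that work with potassium channels but lie outside the family were counted in the same fit. Of 17 channel partners 14 were tested, of which 2 were higher (14.3%, beside 7.33% of all genes) and 1 lower (7.14%, beside 0.57%). Without WT replicate 1 there were 3 in each direction (21.4%, beside 14.9% higher and 7.09% lower). *Abcc8* and *Abcc9* encode the sulfonylurea receptors that surround ATP-sensitive channels. *Abcc8* had 118 and 220 WT counts against 73 and 59 for KO (log2 fold change -1.26 ± 0.30, adjusted p = 0.0398). *Abcc9* went the other way, with 92 and 176 WT counts against 314 and 288 for KO (1.26 ± 0.24, adjusted p = 0.0150). *Lgi1*, a secreted protein found with Kv1 channels, had 76 and 72 WT counts against 242 and 226 for KO (1.71 ± 0.24, adjusted p = 0.0035).

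Of the beta subunits of the sodium-potassium pump, which restores the gradients that channels run down, 1 of 3 was higher, beside 7.33% of all genes. Only the beta subunits of the pump are reported here. *Atp1b2*, the beta subunit of glia, had 131 and 168 WT counts against 1371 and 1749 for KO (log2 fold change 3.44 ± 0.17, adjusted p = 1.18e-05). *Atp1b1* and *Atp1b3* were at 0.14 ± 0.15 and -0.03 ± 0.20, neither of them called. The 4 hyperpolarisation-activated Hcn genes were tested and 0 were called, with log2 fold changes from -0.55 to 0.54 (7.9% of all genes were called). Without WT replicate 1, 1 of the 4 was lower (25.0%, beside 7.09% of all genes). *Atp1b2*, *Kcnj10* and *Kcnj16*, which astrocytes are known to express, were thus higher beside the 12 astrocyte markers. They are not all the channel genes that astrocytes may express, and the other Kcn genes were not sorted by cell type. The share of astrocyte RNA in these values was not tested.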

How the data were processed

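RNA-seq libraries of FACS-enriched E16 cells (2 *Dnmt1* WT, 2 *Dnmt1* KO) were compared from the raw counts per gene that the authors deposited. The submitters' processing notes name CASAVA 1.8.2, STAR 2.5.2a, featureCounts 1.5.0-p1 and builds mm10 and GRCm38. The annotation release and strand setting are not given in the sources used here, so reads of a gene and its antisense partner cannot be told apart.

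Ensembl IDs were matched to GENCODE M21 symbols (55480 of 55573). Counts were scaled with TMM factors, filtered with filterByExpr and tested with the quasi-likelihood test of edgeR 4.0.16 in R 4.3.3, with genotype as the only term and Benjamini-Hochberg adjustment over 16832 genes. The scripts were tested on simulated data. Standard errors come from the test statistic. Kcn genes with an adjusted p under 0.05, the most abundant Kcn genes of each group and of the family, and the 5 with the most negative change among those with at least 10 counts in every library were named. Other members in the text, such as those near the threshold and neighbours of called genes, were named after their values were seen. The members and lists were chosen with earlier results of these data known. Alternatives used DESeq2 1.42.0, limma 3.58.1 (voom), other scalings and filters, trends on length and GC content fitted with mgcv 1.9.3, a replicate term, and each library left out. Intervals and bounds from counts cover counting error only. Totals were 8951532, 9995968, 8075102 and 8813520 counts. Promoter sequences are from RefSeq (GRCm38.p6), and 25 members, *Kcnn2* and *Kcnt1* among them, had no entry. Some genes that this rule would name are not reported here.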

Additional observations from a re-analysis of the deposited data

How the results depend on the processing

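The 10 called Kcn genes stayed called with DESeq2, limma-voom, DESeq2 size factors, library size only, upper-quartile scaling, no filter on low counts, and a length and GC correction. With at least 10 counts required in every library 8 stayed called, and *Kcng4* and *Kcnk13* were then not tested. The same-numbered libraries share only a number (correlation of their deviations 0.137 over genes), and a fit with a replicate block called 14 higher (20.6%, against 9.65% of all genes) and 0 lower (against 3.68%), which moved the calls of all genes from 1233 higher and 96 lower to 1625 and 619. The replicate block with gene length and GC correction called 16 higher (23.5%, against 13.0% of all genes) and 1 lower (*Kcnj11*, 1.47% against 8.03%). Leaving out 1 library at a time gave 6 to 15 higher and 0 to 7 lower. At adjusted p thresholds of 0.01 and 0.1 there were 7 and 13 higher and 0 lower. The share of all genes was not counted at these thresholds, so whether 7 and 13 exceed it was not tested. In the fits with 3 libraries a lone library is assumed to vary like the other group.

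The median log2 fold change of the tested Kcn genes was 0.0169 with library size only, which moved the median of all genes from -0.0262 to 0.0842, and ranged from -0.137 to 0.0409 with 1 library left out. Only uncalled genes changed sign. With library size only, *Kcnc1* was at 0.0293, *Kcnd2* at 0.0316 and *Kcnk10* at 0.0626. With the length and GC correction, *Kcnab2* was at -0.0351, *Kcnd2* at 0.014 and *Kcnk10* at 0.00762, and with the replicate block added -0.0112, 0.0198 and 0.00819. With 1 library left out, the ranges were -0.133 to 0.212 (*Kcnab2*), -0.232 to 0.0661 (*Kcnc1*), -0.157 to 0.00592 (*Kcnd2*), -0.283 to 0.0341 (*Kcnd3*), -0.137 to 0.471 (*Kcne1l*), -0.462 to 0.066 (*Kcng1*), -0.396 to 0.00974 (*Kcnma1*), -0.66 to 0.0476 (*Kcnmb4*) and -0.175 to 0.435 (*Kcnrg*). The neighbours *Kcnj9* and *Kcnj2* also changed sign in such fits, at -0.453 to 0.103 and -0.848 to 0.679. Members not named in the text are not listed. The cause of these changes was not tested.

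Over all genes the share of higher among the calls was 92.8% in the main fit, 83.5% with DESeq2, 75.8% without a filter, 72.4% with the block, 65.4% with the length and GC correction and 61.8% with both. It was 67.8% without WT replicate 1, 50.1% without WT replicate 2, and 97.2% and 96.8% without KO replicate 1 or 2. Without the filter 20 of the 25 untested members had a test and 0 of them were called by edgeR, or passed an unadjusted p under 0.05.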
